A study of Mus musculus with 5 samples.

Results

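BRG1 binding was mapped at 10 mouse genes that encode macrophage matrix metalloproteinases, their tissue inhibitors and membrane sheddases: Mmp8, Mmp9, Mmp12, Mmp13, Mmp14, Mmp19, Timp2, Timp3, Adam8 and Adam17. The genes were chosen by name, out of 21883 protein-coding genes with a position on mm10, and 20661 of those lie on chromosomes 1 to 19, where all peaks were called. A peak was taken for a gene when its summit, the base of highest signal, lay in the gene body or within 50 kb of it. By this rule 32 of the 14951 deposited peaks belonged to these genes, and none fell in the windows of 2 of them. The data are chromatin immunoprecipitation and sequencing (ChIP-seq) with an antibody against BRG1, the motor enzyme of SWI/SNF complexes, which use ATP to move nucleosomes. Cells were primary bone marrow-derived macrophages in 4 groups of 1 library each: wild type (WT) untreated, Baf60a knockout (KO) untreated, wild type with oxidised low-density lipoprotein (oxLDL WT) and Baf60a knockout with the same lipoprotein (oxLDL KO). BAF60a is a non-catalytic SWI/SNF subunit and the product of the gene Smarcd1. How the knockout was made, the age and number of mice, and the dose and time of oxLDL are not given in the sources used. Each group has 1 library, so there is no replicate spread to compare a difference with, no p-value is given, and intervals cover counting error only.

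Matrix metalloproteinases are zinc enzymes that are made as inactive precursors and, once activated, cut collagen, elastin and other matrix proteins. TIMP proteins block them by binding the active site. ADAM proteinases sit in the cell membrane, and several release the outer part of other membrane proteins, such as the precursor of tumour necrosis factor. Macrophages of the artery wall are a source of these enzymes, and their activity is studied as a factor in the weakening of atherosclerotic plaques.

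The lists of the 4 libraries differed greatly in length, with 237 and 139 peaks in untreated WT and KO cells and 9907 and 4668 in the oxLDL WT and oxLDL KO lists. The lowest local background, a measure of relative depth recovered from the deposited values, was 2.70, 3.84, 3.76 and 3.42 fragments. Smarcd1, the targeted gene, lacked a peak in or within 1 kb of the gene in every list. Within 50 kb it had 2 peaks in oxLDL WT and 0 in each of the other lists, and none of this tells whether the knockout removed it. Of 8 macrophage marker genes, 8 had a peak in the body or within 50 kb in oxLDL WT and 7 in oxLDL KO. Peaks inside the gene body were found at 7 and 4 of the 8 macrophage markers, 1 and 0 of 8 neutrophil markers, 0 and 0 of 6 fibroblast markers, and 2 and 1 of 6 lymphocyte markers. In the untreated lists only 1 of the 8 macrophage markers had a peak in its window in WT and 1 in KO, so those lists say little about cell type. Within 50 kb the other marker lists were not empty: 5 and 2 neutrophil genes, 4 and 2 fibroblast genes and 3 and 2 lymphocyte genes had a peak in oxLDL WT and oxLDL KO, with 48.3% and 33.2% of all genes as the background in the window. The fibroblast gene Pdgfrb counted only through 4 oxLDL WT and 2 oxLDL KO peaks inside the macrophage marker gene Csf1r. The fibroblast gene Col1a1 also had 4 and 2 peaks in its window, 0 of them in the body, and 1 in untreated KO. Its highest fold enrichments over local background, 6.51 and 6.56, were above those of every macrophage marker, at most 5.88 in each list. The lymphocyte gene Cd4 had 6 oxLDL WT peaks, 1 of them in the body, and 0 in oxLDL KO. Inside gene bodies the background was 20.5% and 12.6%. A BRG1 peak near a gene is not a measure of its expression.

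The start regions of 4 genes are shown first, because oxLDL WT peaks lay over those of Mmp12, Timp2 and Adam17, whereas Mmp13 had no peak in any list. Each line gives the 250 bases before the start listed by RefSeq on GRCm38.p6, the assembly of mm10, 5′ to 3′ on the strand of the gene. The positions are chr9:7344147-7344396 (plus strand) for Mmp12, chr11:118355412-118355661 (minus strand) for Timp2, chr12:21373633-21373882 (minus strand) for Adam17 and chr9:7272264-7272513 (plus strand) for Mmp13. Capitals mark matches to the motif letters described after the sequences.
Mmp12: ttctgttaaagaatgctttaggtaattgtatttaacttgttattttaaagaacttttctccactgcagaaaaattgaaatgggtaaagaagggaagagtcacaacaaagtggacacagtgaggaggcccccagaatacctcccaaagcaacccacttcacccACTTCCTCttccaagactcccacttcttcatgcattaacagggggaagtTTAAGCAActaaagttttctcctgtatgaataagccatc
Timp2: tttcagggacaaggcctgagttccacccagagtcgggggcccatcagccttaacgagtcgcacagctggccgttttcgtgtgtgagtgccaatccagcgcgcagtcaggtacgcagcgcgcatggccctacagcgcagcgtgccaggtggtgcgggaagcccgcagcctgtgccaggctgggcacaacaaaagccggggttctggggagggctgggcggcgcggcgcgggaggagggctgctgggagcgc
Adam17: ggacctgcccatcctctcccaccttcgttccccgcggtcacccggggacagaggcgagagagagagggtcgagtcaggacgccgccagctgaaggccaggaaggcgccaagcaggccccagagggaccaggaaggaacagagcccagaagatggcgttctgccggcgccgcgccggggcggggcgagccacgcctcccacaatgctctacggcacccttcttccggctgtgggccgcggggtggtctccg
Mmp13: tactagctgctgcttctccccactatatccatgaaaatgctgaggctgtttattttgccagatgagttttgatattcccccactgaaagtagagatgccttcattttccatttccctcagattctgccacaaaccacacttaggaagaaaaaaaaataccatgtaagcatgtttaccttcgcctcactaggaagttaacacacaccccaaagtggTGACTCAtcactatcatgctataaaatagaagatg
Base composition differed among the 3 start regions with a peak. The Mmp12 region had 40.0% G and C and 0 CG pairs, the Timp2 region 68.0% and 21 pairs, and the Adam17 region 70.4% and 23 pairs, against medians of 52.4% and 6 over 32851 listed starts. The RefSeq table held start regions for 8 of the 10 genes, with 2 starts for Mmp12, and none was matched for Mmp9 and Mmp19.

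Of 5 motifs searched on both strands in the 300 bases around each start (250 before and 50 after), AP-1 (TGANTCA) was found at 2 of the 9 start regions of these genes and in 7.81% of all listed start regions. The matches lay 35 bases before the Mmp13 start and 44 bases before the second Mmp12 start. PU.1 (GAGGAAGT) was found at 2 of the 9 regions and in 3.20% of all, 88 bases before the first Mmp12 start and 221 bases before the Mmp8 start. C/EBP (TTGCNNAA) was found at 3 of the 9 regions and in 10.8% of all, 39 bases before the first Mmp12 start, 19 bases before the Mmp8 start and 219 bases before the Adam8 start. NF-kB (GGGANTTCC, in 1.68% of all regions) and a longer MAF and NRF2 motif (in 0.423%), which contains the AP-1 letters, were found at 0 of the 9. The oxLDL WT peak at the Mmp12 start covered the last 171 of the 250 bases printed, both matches included. In Timp2 the oxLDL WT peak covered all 250 bases, and in Adam17 it covered the 71 bases farthest from the start, with no match in either. These matches describe letters in the sequence and do not show that a factor was bound.

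Peaks at these genes were found only in the 2 lists of oxLDL-treated cells. In WT and KO 0 of the 10 genes had a peak in the window, where the background shares of all genes were 2.20% and 1.06%, so no peak at 10 genes is what lists this short give at most genes. The nearest untreated peak to any of the 10 was a KO peak 866 kb from Mmp9. In oxLDL WT 7 of 10 genes had at least 1 peak (70.0%, exact binomial 95% interval 34.8 to 93.3), with 48.3% of all genes as the background. In oxLDL KO 5 of 10 had one (interval 18.7 to 81.3%), against 33.2%. Both intervals include the background share, so these counts do not separate the 10 genes from other genes. The intervals are wide with 10 genes, and they treat the genes as independent, although Mmp8, Mmp12 and Mmp13 share a cluster. With summits in the gene body only, the counts were 5 of 10 in oxLDL WT, against 20.5% of all genes, and 2 of 10 in oxLDL KO, against 12.6%. The exact intervals, 18.7 to 81.3% and 2.52 to 55.6%, include those shares too. The windows of the 10 genes held 21 oxLDL WT peaks and 11 oxLDL KO peaks. These correspond to 1.69 and 0.885 peaks per 100 kb of window, against 0.814 and 0.378 over all genes. Without Adam8 the densities were 1.33 and 0.444, since Adam8 alone held 6 peaks in each list. No interval was computed for the densities.

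**Figure D1:**
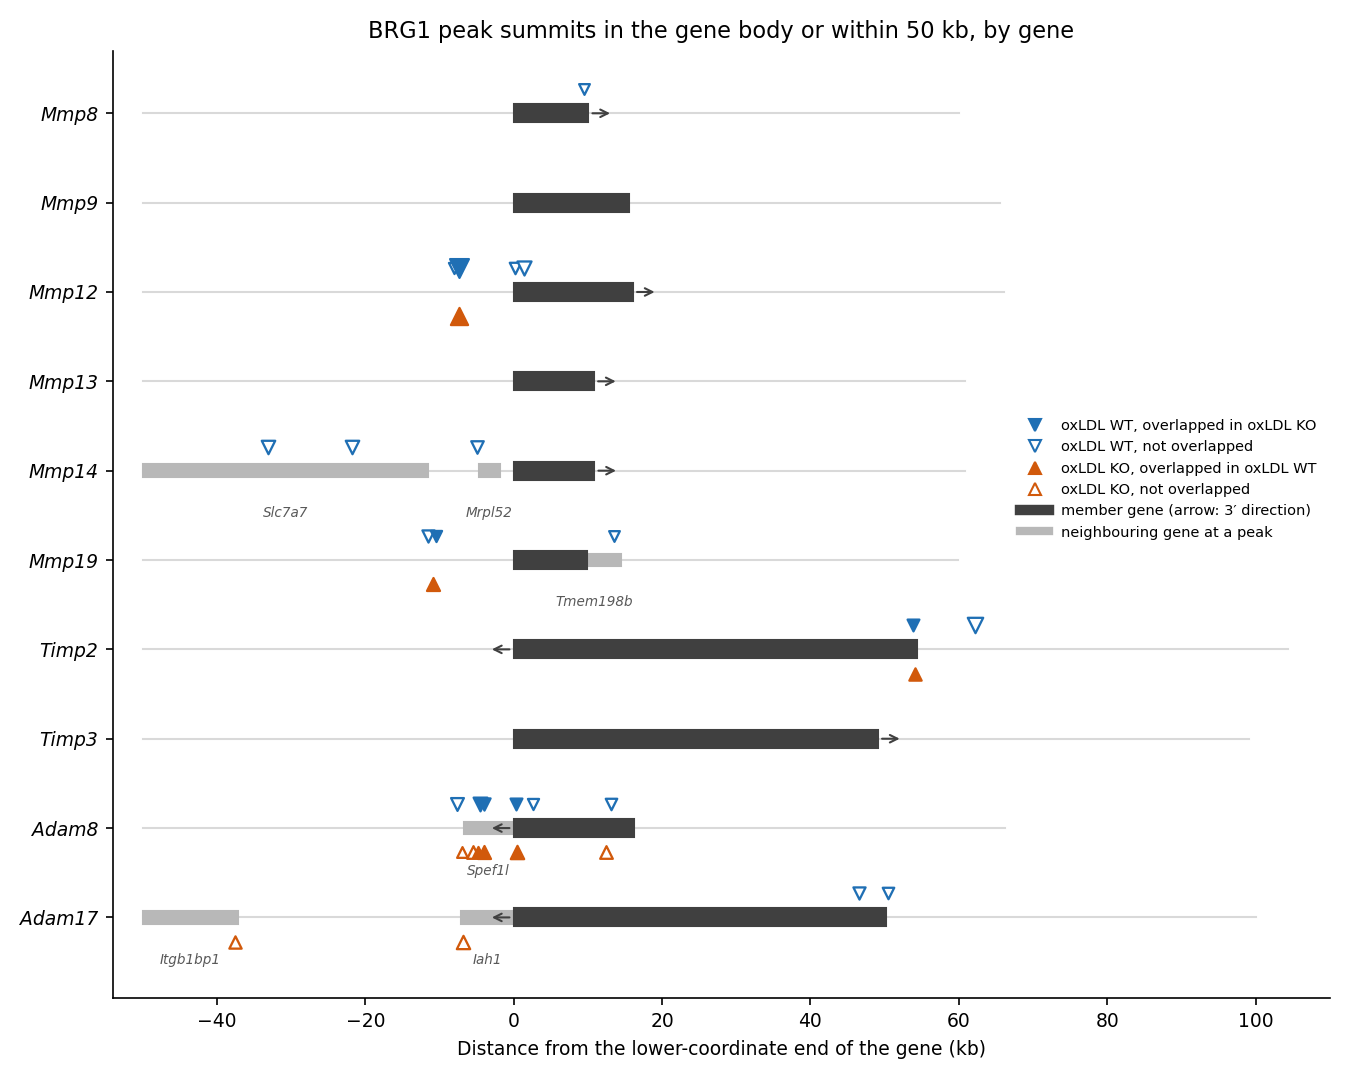
Positions of BRG1 peak summits around the 10 genes, in kb from the lower-coordinate end of each gene. Triangles pointing down are oxLDL WT peaks and triangles pointing up oxLDL KO peaks, filled where a peak of the other oxLDL list overlaps by at least 1 bp, with area in proportion to the deposited fold enrichment. Dark bars are the genes, with an arrow to the 3′ side where the strand is listed, and grey bars are neighbouring genes at a peak. Adam8 holds 6 peaks in each list, and Mmp9, Mmp13 and Timp3 hold 0.

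Mmp12 carried the highest peak of the set. Mmp12 (chromosome 9, 7344397 to 7360461) encodes macrophage elastase, a secreted enzyme that cuts elastin. Its oxLDL WT list held 4 peaks and its oxLDL KO list 1. The highest lay upstream, at 7336959 to 7337212 in oxLDL WT, with its summit 7309 bp before the first listed start. It had a fold enrichment over local background of 9.03, with 42 fragments at the summit (exact Poisson 95% interval 30.3 to 56.8) over a background of 3.76. Fold enrichments and −log10 q values are the authors' own for each peak, and fragment numbers were recovered from them. In oxLDL KO a peak at 7336960 to 7337211 had a fold enrichment of 7.47 and 32 fragments (interval 21.9 to 45.2) over a background of 3.42. For both peaks the background equals the lowest of their own list, so their fold enrichment follows the fragment number alone. The edges of these peaks differed by 1 bp on each side and their summits by 18 bp, so the site was called in both genotypes at almost the same bases. Of the oxLDL WT peaks with a fold enrichment of at least 9.03, 12 of 12 overlapped an oxLDL KO peak. Of the oxLDL KO peaks of at least 7.47, 18 of 18 overlapped an oxLDL WT peak. A match is thus usual at this height. The −log10 q of the site was 24.39 (oxLDL WT) and 15.62 (oxLDL KO). It ranked 10th of 9907 and 15th of 4668 by fold enrichment within its own list. With 254 bp it was also the narrowest of the 20 highest oxLDL WT peaks, whose median width was 827 bp. In oxLDL KO the 20 highest peaks had a median width of 313 bp and a smallest of 230 bp, beside 252 bp at this site. The nearest protein-coding gene was Mmp12 itself, and no gene held the summit.

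The other 3 Mmp12 peaks were listed in oxLDL WT alone. A low one, at 7336085 to 7336484, lay 771 bp from the oxLDL KO summit, with a fold enrichment of 3.15 and 14 fragments (interval 7.65 to 23.5). The peak over the first start, at 7344226 to 7344893, had its summit 219 bp downstream of that start, a fold enrichment of 3.34 and 15 fragments (interval 8.40 to 24.7). This is the peak that covers the PU.1 and C/EBP letters in capitals above. The last, at 7345347 to 7346540, had its summit 1425 bp downstream of the first start and 1552 bp upstream of the second start, at 7347374. Its fold enrichment was 5.04, with a −log10 q of 7.21 and 23 fragments (interval 14.6 to 34.5). At 1194 bp it was the widest peak of the 10 genes and the only one of 1 kb or more. Of the oxLDL WT peaks at least as high as this one, 55.3% overlapped an oxLDL KO peak, and this one did not.

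The collagenase genes Mmp8 and Mmp13 and the gelatinase gene Mmp9 had 1 low peak among them. Mmp8 (chromosome 9, 7558429 to 7568486), which encodes a collagenase best known from neutrophils, had 1 peak in oxLDL WT, at 7567731 to 7568146. It lay inside the gene, 9425 bp downstream of the listed start and near the 3′ end, with a fold enrichment of 2.94, a −log10 q of 1.45 and 13 fragments (interval 6.92 to 22.2). Of the oxLDL WT list, 92.0% of peaks were at least that high, and the nearest oxLDL KO summit was 230784 bp away. Mmp13 (chromosome 9, 7272514 to 7283333), which encodes another collagenase, had no peak within 50 kb. Its nearest summits belonged to peaks upstream of Mmp12, just outside the limit: 53.0 kb away for a low oxLDL WT peak (fold enrichment 3.15) and 53.7 kb away for the oxLDL KO peak. At the other side of the limit, the farthest peak counted was 37.6 kb from Adam17. Mmp9 (chromosome 2, 164940326 to 164955850), which encodes gelatinase B, had no peak within 50 kb, and its nearest oxLDL WT and oxLDL KO peaks were 71.4 and 72.0 kb away.

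Mmp8, Mmp12 and Mmp13 belong to a cluster of 10 Mmp genes on chromosome 9 that spans 427 kb. With 50 kb on either side, the cluster held 5 oxLDL WT peaks and 1 oxLDL KO peak. All of them are the Mmp12 and Mmp8 peaks described above. Mmp1b and Mmp27, which lie beside Mmp12 and Mmp8, had peaks in their windows only because they share these. The remaining genes of the cluster (Mmp1a, Mmp3, Mmp7, Mmp10 and Mmp20) had none.

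Mmp14 and Mmp19 had peaks beside the gene and none inside it. Mmp14 (chromosome 14, 54431598 to 54442456) encodes a membrane-bound metalloproteinase that activates the precursor of MMP2. It had 3 peaks in oxLDL WT and 0 in oxLDL KO, where the nearest peak was 326 kb away. At 54398379 to 54398627 and 54409513 to 54409927 the fold enrichment was 4.62 in each, with a −log10 q of 5.85 and 21 fragments (interval 13.0 to 32.1). Both lay closer to Slc7a7, an amino acid transporter gene, than to Mmp14: one inside it and the other 338 bp before its listed start, a position that the gene table also counts as inside. The last peak, at 54426575 to 54427127, had a fold enrichment of 3.99 and 18 fragments (interval 10.7 to 28.4). Its summit lay 4897 bp before the Mmp14 start but 208 bp before the start of Mrpl52, a mitochondrial ribosomal protein gene. When only peaks whose nearest gene is the member were counted, Mmp14 had none.

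Mmp19 (chromosome 10, 128790910 to 128800827) encodes a secreted metalloproteinase. It had 3 oxLDL WT peaks and 1 oxLDL KO peak. On its lower-coordinate side, oxLDL WT peaks at 128779117 to 128779488 and 128779814 to 128780528 had fold enrichments of 3.78 and 3.15. The oxLDL KO peak at 128779816 to 128780113 had 4.30, with 18 fragments (interval 10.7 to 28.4). It lay wholly inside the second oxLDL WT peak, but the summits of the overlapping pair were 506 bp apart. These summits stood 10.4 to 11.6 kb from the gene. The last oxLDL WT peak, at 128804292 to 128804896 with a fold enrichment of 2.92 and 13 fragments (interval 6.92 to 22.2), lay 16 bp downstream of the start of the neighbour Tmem198b. No start or strand was matched for Mmp19, so upstream and downstream are not given.

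Of the inhibitor genes, Timp2 had peaks and Timp3 had none. TIMP2 inhibits metalloproteinases and also takes part in the activation of MMP2 by the Mmp14 product. At Timp2 (chromosome 11, 118301061 to 118355411, minus strand) both oxLDL lists held a peak just downstream of the start. The oxLDL WT peak at 118354746 to 118355680 had a fold enrichment of 3.55 and 19 fragments (interval 11.4 to 29.7). The oxLDL KO peak at 118354993 to 118355296 had 3.85 and 16 fragments (interval 9.15 to 26.0), and lay wholly inside the oxLDL WT peak. Summits were 500 and 276 bp downstream of the start. The oxLDL WT peak, 935 bp wide, ran across the start and over the sequence printed above, and the oxLDL KO peak, 304 bp wide, ended before reaching it. Timp2 was the only one of the 8 genes with a listed start to have an oxLDL KO summit within 1 kb of it.

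A second Timp2 peak was the highest of the set without a counterpart in the other list. It was called in oxLDL WT at 118362733 to 118363372, 7814 bp upstream of the start, with a fold enrichment of 6.05, a −log10 q of 11.03 and 28 fragments (interval 18.6 to 40.5). Of the oxLDL WT list, 2.82% of peaks were at least that high, and 67.0% of those overlapped an oxLDL KO peak. The nearest oxLDL KO summit, that at the Timp2 start, was 8090 bp away. Timp3 (chromosome 10, 86300412 to 86349505) encodes a matrix-bound inhibitor that also blocks ADAM17. Its nearest peaks were 278 kb away in oxLDL WT and 289 kb away in oxLDL KO.

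Adam8 had the most peaks of the 10 genes in each oxLDL list. Adam8 (chromosome 7, 139978932 to 139995207, minus strand) encodes a membrane proteinase of myeloid cells. At least 6 peaks in the window were found at 3.90% of all genes in oxLDL WT, and in oxLDL KO at 0.547%, or 113 genes. Exactly the same numbers in all 4 lists (0, 0, 6 and 6) were found at 6 other genes. Most of the peaks lay near the 3′ end of Adam8 and in the next gene, Spef1l. Between 139971064 and 139975068 there were 3 oxLDL WT and 4 oxLDL KO peaks, at 3989 to 7698 bp from Adam8, inside Spef1l or nearest to it. Their oxLDL WT fold enrichments were 4.20, 4.83 and 3.78, with 19, 22 and 17 fragments. In oxLDL KO they were 2.94, 4.07, 3.12 and 4.30, with 12, 17, 15 and 18 fragments.

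In this stretch 2 pairs overlapped, with summits 183 and 56 bp apart. Another overlapping pair lay inside Adam8 near its 3′ end, at 139979163 to 139979470 in oxLDL WT and 139979229 to 139979484 in oxLDL KO. Its fold enrichments were 3.57 with 16 fragments (interval 9.15 to 26.0) and 4.53 with 19 fragments (interval 11.4 to 29.7). The summits of this pair lay 498 and 629 bp from the start of Spef1l. Nearer the Adam8 start the lists did not overlap. An oxLDL WT peak at 139991960 to 139992410 (fold enrichment 3.35, 15 fragments, interval 8.40 to 24.7) had its summit 566 bp downstream of the listed start. An oxLDL KO peak at 139991145 to 139991468 (4.07, 17 fragments, interval 9.90 to 27.2) had its summit 1243 bp downstream, 677 bp from the other. The gene table places the end of Adam8 2645 bp beyond that listed start, so another start may lie further upstream. The sixth oxLDL WT peak, at 139981366 to 139981743 inside the gene, had a fold enrichment of 3.15 and no oxLDL KO peak over it.

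Adam17 had 2 peaks in each oxLDL list and none in common. ADAM17 is the sheddase that releases tumour necrosis factor from the cell surface. In oxLDL WT both lay at or near the start of Adam17 (chromosome 12, 21323509 to 21373632, minus strand). The peak at 21373812 to 21374083 had its summit 306 bp upstream of the start, a fold enrichment of 3.36 and 15 fragments (interval 8.40 to 24.7), and it covers the outer part of the sequence printed above. The peak at 21369889 to 21370293 had its summit 3574 bp downstream, with 3.78 and 17 fragments (interval 9.90 to 27.2). In oxLDL KO both peaks lay beyond the 3′ end of Adam17 and close to the starts of other genes. One, at 21316469 to 21316721 (4.53, 19 fragments, interval 11.4 to 29.7), was 225 bp downstream of the start of Iah1. The other, at 21285790 to 21286112 (3.85, 16 fragments, interval 9.15 to 26.0), was 389 bp downstream of the start of Itgb1bp1, which encodes an integrin-binding protein. All 4 peaks had a −log10 q below 5.

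The lists of oxLDL KO and oxLDL WT were compared gene by gene and peak by peak. With 1 library per genotype, an effect of BAF60a loss cannot be told apart from a difference between libraries. Both lists had a peak in the window at 5 genes, Mmp12, Mmp19, Timp2, Adam8 and Adam17, where 29.2% of all genes had one in both. Adam17 counted here without any overlapping peak, and its oxLDL KO summits lay inside Iah1 and Itgb1bp1. Mmp8 and Mmp14 had a peak in oxLDL WT alone, as did 19.1% of all genes. In oxLDL KO alone there was none of the 10, and 4.04% of all genes. Peak by peak, 6 of the 21 oxLDL WT peaks shared at least 1 bp with one of oxLDL KO (28.6%, exact binomial 95% interval 11.3 to 52.2). Over the whole oxLDL WT list the share was 27.3%. Conversely, 6 of 11 oxLDL KO peaks shared sequence with one of oxLDL WT (54.5%, interval 23.4 to 83.3), against 59.6% of the whole oxLDL KO list. Both shares were close to those of the whole lists. Adam8 gave 3 of the 6 overlapping pairs, and Mmp12, Mmp19 and Timp2 gave 1 each.

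Of the 15 oxLDL WT peaks without an overlapping oxLDL KO peak, 4 had at least 20 fragments: 1 upstream of Timp2 (28), 1 inside Mmp12 (23) and 2 beside Mmp14 (21 each). Of the 5 oxLDL KO peaks without an overlapping oxLDL WT peak, 0 reached 20. Over the whole lists, 22.8% of the 7202 oxLDL WT peaks without a counterpart and 16.8% of the 1886 such oxLDL KO peaks had at least 20 fragments, and 15 and 5 peaks are too few to be told apart from those shares. The fewest fragments of any listed peak at the lowest background were 12 in either oxLDL list. A peak list holds no value below its limit, so the level of BRG1 at an unlisted site is not known. The lower bounds for the 4 higher oxLDL WT peaks were 13.0 fragments for both Mmp14 peaks, 14.6 for Mmp12 and 18.6 for Timp2. These 4 were picked for having at least 20 fragments, so bounds above 12 follow from that choice. They do not show a lower level in oxLDL KO.

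**Figure D2:**
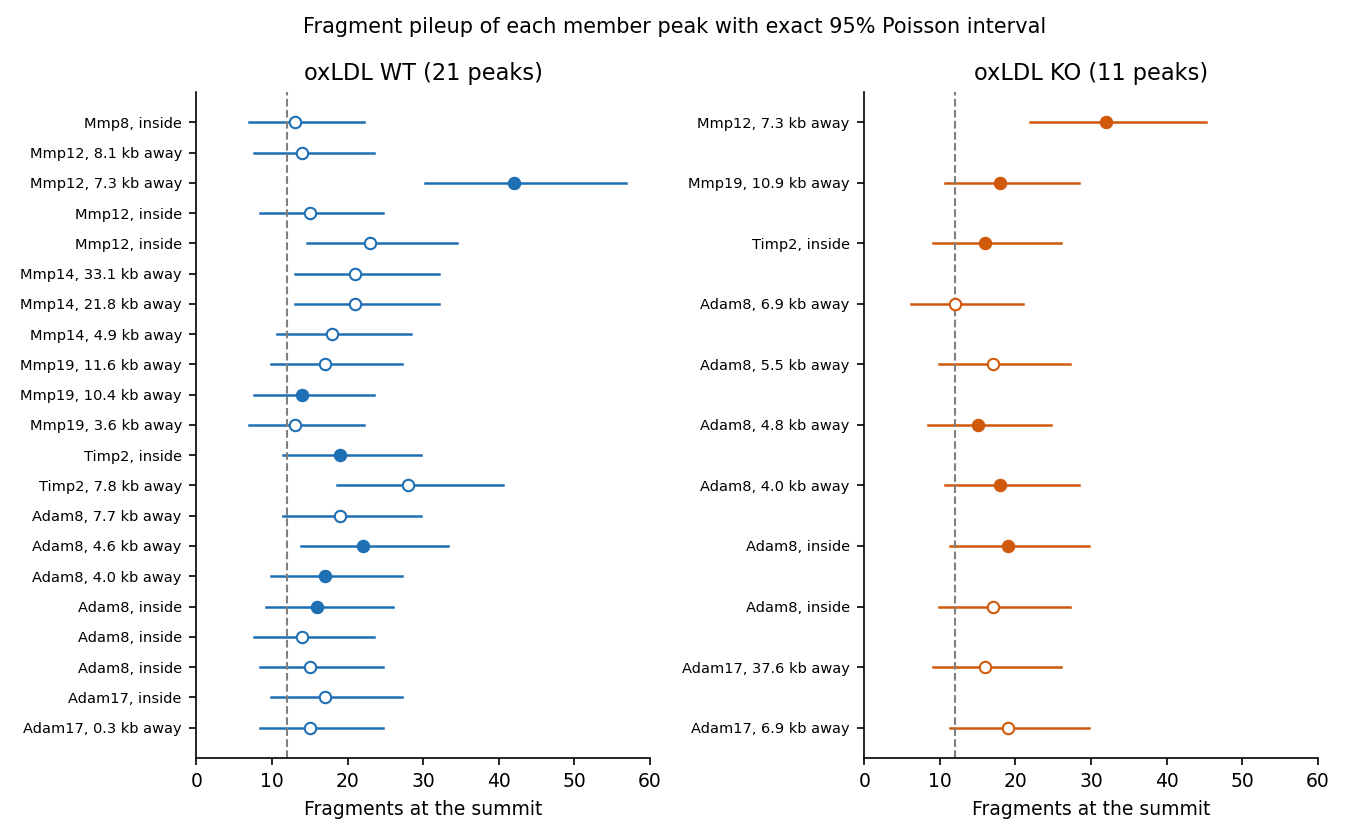
Fragments at the summit of each peak of the 10 genes in oxLDL WT (left, 21 peaks) and oxLDL KO (right, 11 peaks), with exact 95% Poisson intervals. Filled points overlap a peak of the other list, and the dashed line marks 12 fragments, the fewest of any listed peak at the lowest background. The upstream Mmp12 peak stands at 42 and 32 fragments, and the intervals of most other peaks include the line.

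Within their own lists most of these peaks were of ordinary height. Fold enrichment ran from 2.92 to 9.03 with a median of 3.78 in oxLDL WT, where the list as a whole had a median of 3.75. In oxLDL KO it ran from 2.94 to 7.47 with a median of 4.07, against 3.85. A −log10 q of at least 5 was reached by 6 of the 21 oxLDL WT peaks, in the windows of Mmp12, Mmp14, Timp2 and Adam8. Those of Mmp14 had their summits inside Slc7a7, and that of Adam8 inside Spef1l. In oxLDL KO 1 of the 11 peaks reached it, at Mmp12. The share of the whole lists at this limit is not given. The median −log10 q was 3.43 for both the 21 peaks and the oxLDL WT list. For the 11 peaks it was 3.61, against 3.23 for the oxLDL KO list. A summit within 1 kb of a listed start was found at 4 of 8 genes in oxLDL WT (Mmp12, Timp2, Adam8 and Adam17), against 17.3% of all genes with a listed start, which the exact interval of 15.7 to 84.3% includes. In oxLDL KO it was found at 1 of 8, against 10.5%. For 7 of the 21 and 6 of the 11 peaks another protein-coding gene was nearer than the member gene.

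**Figure D3:**
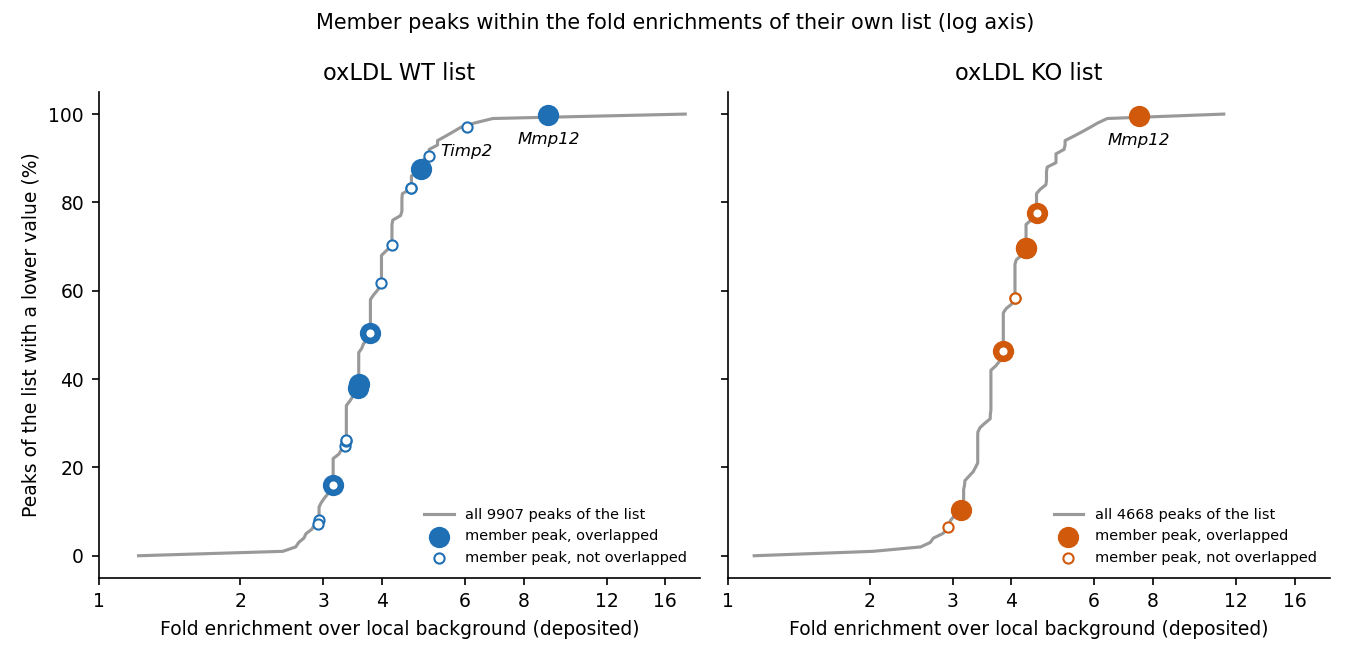
Deposited fold enrichment (log axis) of the peaks of the 10 genes against the share of their own list with a lower value, for oxLDL WT (left) and oxLDL KO (right). The grey line is the whole list, large filled points overlap a peak of the other list, small open points do not, and equal values lie on each other. The upstream Mmp12 peak is the highest of the plotted genes in both lists, at 9.03 and 7.47, and the Timp2 peak at 6.05 is the highest open point.

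The other genes of the pathway list (further metalloproteinases, inhibitors, activators, and partners and substrates of sheddases) gave the following counts. Of 46 genes 45 lay on chromosomes 1 to 19. The inhibitor gene Timp1, on the X chromosome, was left out. A peak in the window was found at 26 of the 45 (57.8%) in the oxLDL WT list and at 19 (42.2%) in the oxLDL KO list, 18 of them in both. Those shares stand beside 48.3% and 33.2% of all genes. In the untreated lists the counts were 2 in WT and 0 in KO. The gene with the most oxLDL WT peaks in its window was Lrp1, with 12 in oxLDL WT and 8 in oxLDL KO. It encodes an endocytic receptor that clears proteinase complexes, and 7 peaks of each list lay in its body. The window of Tnf, which encodes tumour necrosis factor, held 11 and 5, with 1 and 0 in the body. That of the receptor gene Tnfrsf1b held 10 and 5, with 3 and 2 in the body. The share of all genes with as many peaks is not given. Another 8 genes of the list had 4 oxLDL WT peaks each, and the 2 of these with the highest fold enrichment are named. Furin, which encodes a convertase that activates proenzymes, had 4 and 5, with a highest fold enrichment of 8.79 in oxLDL WT and 5.19 in oxLDL KO. Mmp1b had 4 and 1, all shared with Mmp12. Rhbdf1, which encodes a partner of ADAM17, was the only gene of the list with a peak in oxLDL KO (1, at 4.07) and none in oxLDL WT.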

How the data were processed

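The data were BRG1 ChIP-seq peak lists of 4 libraries, 1 list each, grouped by sample title; 1 input library was not analysed here. Per the submitters' processing notes, bcl2fastq 2.17, Trimmomatic 0.33, Bowtie2, MACS3 and mm10 were used. Parameters, and whether the input was the caller's control, are not stated in the sources used. Peaks were called per library. The authors deposited for each peak a score (10 times −log10 q, cut to a whole number), a fold enrichment (a ratio of pileup to local background), −log10 p, −log10 q and the summit offset. Chromatin was cut by an enzyme, per the labels' protocols, which sets where fragments end.

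Pileup and background were solved from fold enrichment, (pileup + 1)/(background + 1), and the Poisson p-value. All 32 peaks of the 10 genes gave a whole pileup within 2% of the step between neighbouring whole numbers. Tested on simulated data, the method recovered pileup and background for 500 of 500 simulated peaks. These were made with the same formulas, so the test checks the calculation and not whether the peak caller used those formulas. Positions are 1-based. Genes and starts came from RefSeq tables on GRCm38.p6, which hold no exons, so exon, intron and UTR are not given. Analyses used Python 3.11.15 with numpy 2.4.6, pandas 2.3.3 and scipy 1.17.1. Named genes were the 10 members and, from the pathway list, up to 5 with most oxLDL WT peaks and up to 3 with peaks in oxLDL KO alone; neighbours were named where a summit lay in or nearer to them. The members, lists and limits were chosen with earlier results of these data known.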

Additional observations from a re-analysis of the deposited data

How the results depend on the processing

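Of 38 values of the oxLDL lists recomputed under another setting, 28 stayed within 1.5 times the main count or kept the same highest peak. In WT and KO only the wider window could have raised the counts of 0, and they were 0 at 100 kb too. At a −log10 q of at least 5, members with a peak numbered 4 in oxLDL WT and 1 in oxLDL KO (from 7 and 5), and peaks 6 and 1 (from 21 and 11). The share of all genes with a peak at this limit is not given, so this fall cannot be set against that of other genes. With a window of 100 kb there were 18 oxLDL KO peaks. With gene bodies only there were 8 oxLDL WT peaks, and 3 oxLDL KO peaks at 2 members. Counting only peaks nearest to the member, a setting chosen after seeing the data, left 5 oxLDL KO peaks. With peaks up to 500 bp apart taken as matched, 10 of the 21 oxLDL WT peaks and 8 of the 11 oxLDL KO peaks had a match, against 33.6% and 67.8% of the whole lists. These settings change the number of peaks or sites by construction. A common −log10 p limit of 5.33 left 16 oxLDL WT and 9 oxLDL KO peaks. No paired analysis was possible because each group has 1 library. Depth limits low peaks: intervals of most pileups include 12 fragments, the fewest of a listed peak at the lowest background.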
